A study of Mus musculus with 4 samples.

Results

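The genes described here are the nuclear-encoded genes of oxidative phosphorylation in mice, taken by symbol. They are all genes whose symbol starts with Nduf, Uqcr, Atp5, Cox4, Cox5, Cox6, Cox7 or Cox8, and the 4 succinate dehydrogenase genes Sdha, Sdhb, Sdhc and Sdhd. Of 32285 genes listed, 94 matched, and 91 held at least 100 UMIs (unique molecular identifiers, each standing for 1 captured RNA molecule) over the 4 libraries. The 3 left out were Cox8b and Cox8c, with 0 UMIs each, and Cox7b2, with 3. The 91 comprise 37 complex I subunits, 8 complex I assembly factors, 4 complex II genes, 8 complex III genes, 17 complex IV genes and 17 genes of complex V.

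The cells were CD45+ immune cells sorted from the spinal cord of C57BL/6 mice in which EAE had been induced. EAE, experimental autoimmune encephalomyelitis, models multiple sclerosis: immunization against myelin leads leukocytes into the central nervous system. Mice received either Ctrl MO or Reg1-MOs into the cranium at day 9 after immunization, and the cord was taken at day 16, so that every library came from immunized mice given an oligo. Reg1 is read here as Regnase-1 (Zc3h12a), an RNase that degrades inflammatory mRNAs, and MO as morpholino, an antisense oligo; the labels spell out neither. Each arm had 2 libraries made with 10x Genomics 3′ chemistry, and nothing in the labels says how many mice went into each, nor the age of the mice.

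Oxidative phosphorylation is the last stage of respiration. Complexes I and II pass electrons from NADH and succinate to ubiquinone, complex III passes them on to cytochrome c, and complex IV, cytochrome c oxidase, hands them to oxygen. Complexes I, III and IV pump protons across the inner mitochondrial membrane, and complex V, ATP synthase, uses their return to make ATP. Most subunits are encoded in the nucleus and a few in mitochondrial DNA. Several subunits of complexes IV and V have paralogues made in different tissues: COX6A2 is the form known from heart and skeletal muscle, and COX6A1 the form found in most other tissues. Neutrophils are known for relying on glycolysis and holding few mitochondria, while activated T cells and macrophages change the balance of glycolysis and respiration.

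After filtering, 26853 of 29379 barcodes were kept, from 4953 to 8080 per library, with median depths of 9458 to 11548 UMIs per cell. Pairs of libraries shared 10 to 78 barcodes, at most 0.945% of the smaller library. The cells fell into 27 clusters, of which 24 took a class name from marker genes, giving 11 classes, and 3 clusters with 797 cells stayed unnamed. In 7 classes every library held at least 30 cells and a test was made. The median depth of microglia-like cells was 44784 UMIs in Ctrl 1, 13783 in Ctrl 2, 42364 in Reg1-MO 1 and 17044 in Reg1-MO 2. It was thus lower in replicate 2 of each group. The Ctrl 2 library stood apart in having 270 of the 290 cells of unnamed cluster 12. The Reg1-MO libraries held smaller shares of neutrophil-like cells, 5.90% and 20.8% of cells against 27.5% and 38.1%. Zc3h12a itself, counted over all cells, stood at 57.5, 69.9, 58.4 and 67.5 CPM in Ctrl 1, Ctrl 2, Reg1-MO 1 and Reg1-MO 2. CPM are counts scaled to an equal total of UMIs per library, over the cells in question. Its groups overlapped, and the exact permutation test gave p = 1. Whether the Reg1-MOs lower or raise Regnase-1 is not assumed here. A morpholino can act without changing the RNA level, so a 3′ tag need not check the labels. Values of 4 libraries are given below in this order.

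The level of the oxidative phosphorylation genes as a whole separated the immune cell classes more widely than it separated the treatments. The 91 genes together took 1.62%, 1.49%, 1.68% and 1.498% of all UMIs. In progenitor-like cells, a single cluster led by Elane, Mpo, Ctsg and Prtn3, genes of the first granules made by neutrophil precursors, they took 2.27%, 2.20%, 2.39% and 2.35%. This was the highest share of the 10 classes compared in each of the 4 libraries. In neutrophil-like cells the share was 0.923%, 0.931%, 0.928% and 0.828%, the lowest of the 10 in each library. The 12 neutrophil markers alone summed to 318076, 317002, 302633 and 354353 CPM in these cells. A share or CPM depends on the UMIs of all other genes, and the part of these markers in the low values was not tested. The nearest value to the neutrophil-like range was 0.953%, in the 9 migratory dendritic cell-like cells of Ctrl 2, and the nearest to the progenitor-like range was 1.85%. The mast/basophil-like class was left out of this ranking because 3 libraries held 2 or 3 of its cells.

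Between these ends, the macrophage-like cells stood at 1.74%, 1.82%, 1.68% and 1.64%, the T-like cells at 1.63%, 1.55%, 1.78% and 1.71%, and the plasmacytoid dendritic cell-like cells at 1.59%, 1.59%, 1.85% and 1.77%. Conventional dendritic cell-like cells stood at 1.71%, 1.56%, 1.73% and 1.65%. These 4 classes overlapped each other, and none of their order holds beyond the spread of the libraries. NK/ILC1-like cells were lower, at 1.395%, 1.23%, 1.45% and 1.52%. Microglia-like cells ran from 1.18% in Ctrl 2 to 1.66% in Ctrl 1, the widest spread of a tested class. Migratory dendritic cell-like cells stood at 1.27%, 0.953%, 1.30% and 1.31% and B/plasma-like cells at 1.22%, 1.13%, 1.29% and 1.60%. The widest 95% Wilson half-width of a share in a tested class was 0.0387 percentage points, in the plasmacytoid dendritic cell-like cells of Ctrl 2. The 2 Ctrl libraries of that class, at 1.587% and 1.590%, lay closer together than this. Such an interval covers counting error only.

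**Figure D1:**
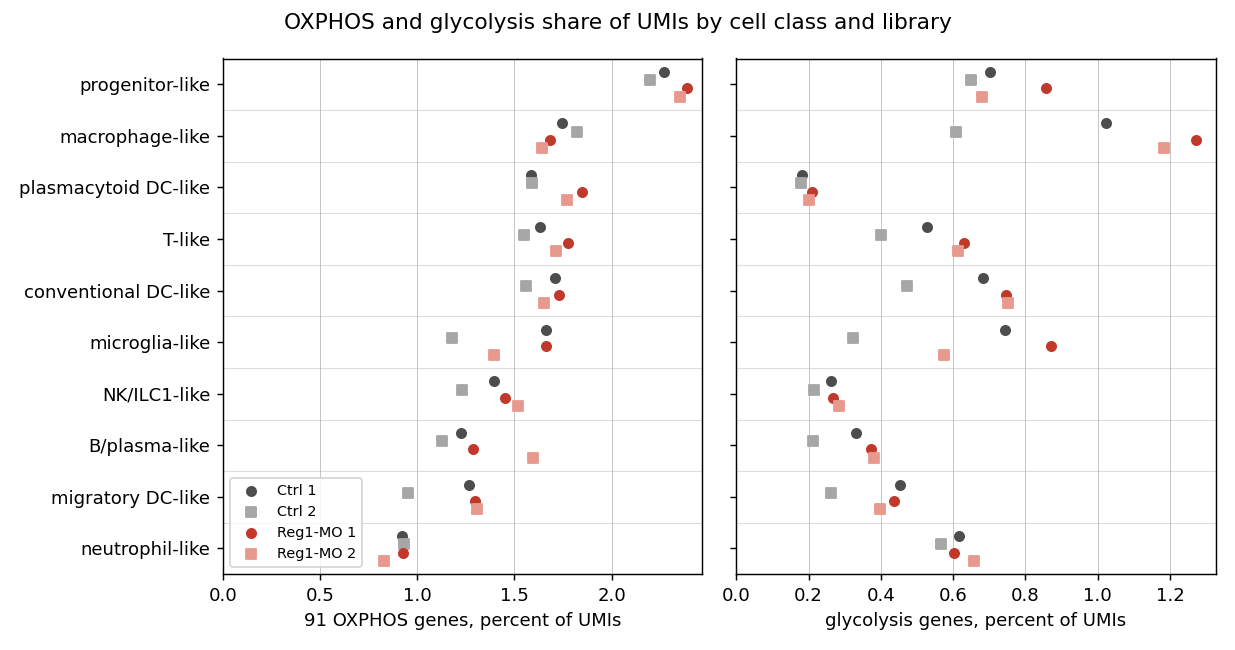
The 91 nuclear-encoded oxidative phosphorylation genes (left) and glycolysis genes (right) as percent of all UMIs (x axis) in each marker-defined class (y axis), 1 point per library. On the left, progenitor-like cells lie between 2.20% and 2.39% and neutrophil-like cells between 0.828% and 0.931%. There both Reg1-MO values are higher than both Ctrl values in T-like, NK/ILC1-like and plasmacytoid dendritic cell-like cells, and lower in macrophage-like cells.

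The clusters within the neutrophil-like class differed. Cluster 22, whose leading genes include the granule genes Camp, Ngp and Ltf and the regulator Cebpe, known from immature neutrophils, stood at 1.24%, 1.28%, 1.34% and 1.26%. Cluster 9 stood at 0.909%, 0.933%, 0.880% and 0.848%. Clusters 7 and 8 stood at 0.658% to 0.737% over both clusters and the 4 libraries. Cluster 20, led by Cxcl2, Il1a and G0s2, stood at 0.993% and 1.01% in Ctrl and 0.820% and 0.623% in Reg1-MO, and its Reg1-MO 2 value was the lowest of the 5 clusters in any library. These clusters were formed on the same cells, with the 91 genes left out of the genes used for clustering, and their order is a description.

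The low share of neutrophil-like cells was not carried by a single complex. For 28 of the 91 genes the neutrophil-like level was the lowest of the 10 classes in all 4 libraries, among them 1 of 8 assembly factors, 1 of 4 complex II genes, 12 of 37 complex I subunits, 4 of 8 complex III genes, 3 of 17 complex IV genes and 7 of 17 complex V genes. Progenitor-like cells were highest in all 4 libraries for 55 of the 91 genes, including 25 of 37 complex I subunits and 13 of 17 complex V genes. T-like cells were highest in all 4 for 3 genes, Ndufa13, Ndufv3 and Uqcrh, and plasmacytoid dendritic cell-like cells for 1, Cox6a2. The same counts were not made over all genes, so they do not set the 91 genes apart from other genes. In a 3′ assay a molecule counts once whatever the length of the gene, so CPM need no length term. The levels of a gene are compared between cells below, and its level against another gene's only as UMIs of the same cells.

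**Figure D2:**
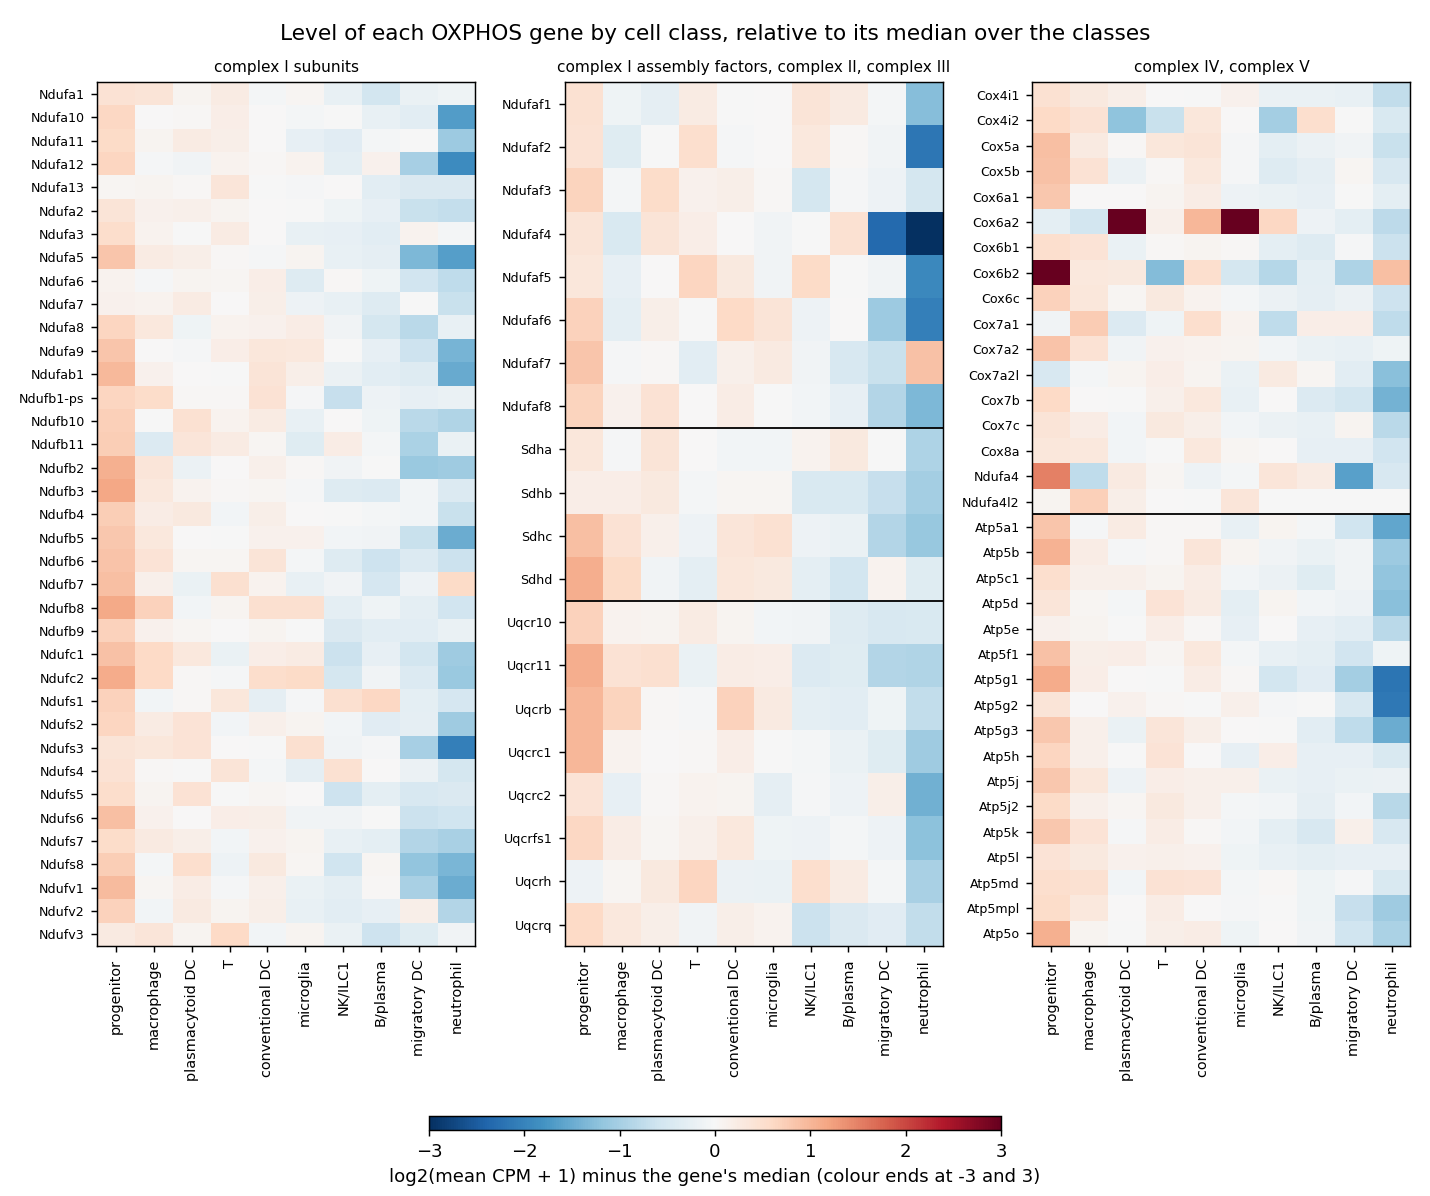
Level of each of the 91 genes (rows, grouped by complex) in each class (columns) as the colour, log2(mean CPM + 1) minus the gene's median over the 10 classes drawn, ending at -3 and 3. The neutrophil-like column is low and the progenitor-like column high over most rows, while Cox6a2 is far above its median in plasmacytoid dendritic cell-like and microglia-like cells, where the colour reaches the end of its scale.

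Complex I, NADH dehydrogenase, is the largest complex and the entry point for NADH. Its most abundant listed genes over all cells were Ndufb1-ps, at 283, 313, 318 and 239.8 CPM, and Ndufa13, at 254, 225, 270 and 248 CPM. Ndufb1-ps is annotated as a bidirectional-promoter lncRNA in GENCODE and stands in the list by its symbol. Ndufa13, known also as GRIM-19, is a subunit of the membrane arm. It stood at 297, 271, 342 and 340.4 CPM in T-like cells and at 175, 171, 173 and 194 CPM in neutrophil-like cells. Yjefn3 overlaps Ndufa13 on its own strand, so reads at that locus could be split between them; no other member was overlapped on its strand by a listed gene.

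The subunits of complex I did not scale down evenly in neutrophil-like cells. Ndufs3, a core subunit of the matrix arm, stood at 19.3, 17.2, 21.3 and 13.5 CPM there, 0.232 of its median over classes. Such medians in the text are taken over all 11 named classes, mast/basophil-like cells included. Ndufb7, a subunit of the membrane arm, stood at 236, 219, 221 and 196 CPM, 1.38 times its median over classes. Ndufb3, also of the membrane arm, was at 220.0, 203, 205 and 201 CPM in progenitor-like cells against 62.1 to 78.4 CPM in neutrophil-like cells. 

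The 8 assembly factors help build complex I and are not part of it. Ndufaf8 and Ndufaf3 were their most abundant genes over all cells, at 41.98, 33.4, 49.3 and 41.7 CPM and at 27.1, 20.5, 31.2 and 29.4 CPM. They held the extremes of the neutrophil-like cells in both directions. Ndufaf4 stood at 0.380, 0.628, 2.41 and 0.261 CPM in neutrophil-like cells and at 20.3 to 22.4 CPM in T-like cells, and its neutrophil-like mean was 0.0499 of the median over classes. Ndufaf5, Ndufaf6 and Ndufaf2 were at 0.134, 0.153 and 0.185 of theirs. Ndufaf7, a methyltransferase acting on a complex I subunit, was at 43.1, 42.4, 28.9 and 42.7 CPM in neutrophil-like cells and at 15.4 to 17.5 CPM in T-like cells. Its neutrophil-like mean was 1.85 times the median over classes, and no T-like library reached a neutrophil-like one.

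Complex II, succinate dehydrogenase, is shared with the tricarboxylic acid cycle and is encoded wholly in the nucleus. Sdhb, its iron-sulfur subunit, stood at 141, 115, 154 and 137 CPM over all cells, and Sdhd, a membrane anchor, at 79.4, 73.4, 79.2 and 68.8 CPM. Sdha, the flavoprotein that oxidizes succinate, was at 79.9, 92.6, 71.5 and 66.5 CPM in macrophage-like cells and at 35.0 to 44.1 CPM in neutrophil-like cells. Sdhc, the other anchor, was at 59.6, 60.7, 48.7 and 45.4 CPM in macrophage-like cells and at 20.8, 20.9, 15.8 and 11.6 CPM in neutrophil-like cells. All 4 genes were lower in each neutrophil-like library than in any macrophage-like one.

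In complex III, the cytochrome bc1 complex, Uqcrh and Uqcrq were the most abundant, at 451, 485, 468 and 419.8 CPM and at 265, 215, 279.8 and 243 CPM. Uqcrh, the acidic hinge subunit that binds cytochrome c1, did not follow the order of the other genes. It stood at 729.7, 773, 723 and 698 CPM in T-like cells and at 402, 431, 415 and 416 CPM in progenitor-like cells, below every T-like library. Uqcrc1, a core protein of the same complex, stood at 202, 181, 209 and 198 CPM in progenitor-like cells and at 93.0 to 108 CPM in T-like cells, the opposite order.

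In complex IV, Cox8a and Cox4i1 led over all cells, at 724, 671, 785 and 676 CPM and at 718, 698, 703 and 600 CPM. Cox8a, the smallest nuclear subunit, was at 416 to 498 CPM in neutrophil-like cells and at 788 to 898 CPM in progenitor-like cells. Ndufa4, named for complex I but known as a subunit of complex IV, had the highest ratio of the highest to the median class after Cox6a2 and Cox6b2 among members above 20 CPM, 2.74. Ndufa4 stood at 612, 554, 549.6 and 632 CPM in progenitor-like cells, and at 111, 105, 106 and 163 CPM in macrophage-like cells. Neutrophil-like cells, at 122 to 159 CPM, overlapped the macrophage-like ones for this gene.

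In complex V, Atp5e and Atp5g2 led over all cells, at 499.99, 508, 556 and 489 CPM and at 446, 429, 511 and 409 CPM. Atp5g1, Atp5g2 and Atp5g3 encode the same mature subunit c, the rotor ring of ATP synthase, from 3 genes. All were low in neutrophil-like cells. Atp5g1 stood at 49.7, 43.6, 52.6 and 28.9 CPM there against 445, 394, 462 and 461 CPM in progenitor-like cells. Atp5g2 stood at 105, 103, 134 and 75.8 CPM against 611, 589.9, 611 and 604 CPM, and Atp5g3 at 55.1, 50.0, 52.9 and 41.8 CPM against 252, 231, 285 and 233 CPM. The Atp5g1 part of the family was 34.0%, 32.4%, 34.0% and 35.5% in progenitor-like cells and 23.7%, 22.2%, 22.0% and 19.7% in neutrophil-like cells. Its mean level was 10.1 times higher in progenitor-like than in neutrophil-like cells, the highest such ratio of the 3.

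The promoters of these 3 genes are printed because they encode 1 protein and were low together in the same cells. They are RefSeq windows on GRCm38.p6 of 250 bases before and 50 after a start site, written 5′ to 3′ on the gene's strand, with Atp5g1 at chr11:96075582-96075881, Atp5g2 at chr15:102670998-102671297 and Atp5g3 at chr2:73911277-73911576, all on the minus strand. Capitals mark matches to the motifs named after them.
Atp5g1: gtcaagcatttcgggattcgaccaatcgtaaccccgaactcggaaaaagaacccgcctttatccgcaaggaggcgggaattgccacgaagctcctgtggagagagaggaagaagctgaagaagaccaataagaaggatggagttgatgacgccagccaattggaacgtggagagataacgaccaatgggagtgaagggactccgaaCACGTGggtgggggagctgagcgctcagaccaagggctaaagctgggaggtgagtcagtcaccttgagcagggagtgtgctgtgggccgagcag
Atp5g2: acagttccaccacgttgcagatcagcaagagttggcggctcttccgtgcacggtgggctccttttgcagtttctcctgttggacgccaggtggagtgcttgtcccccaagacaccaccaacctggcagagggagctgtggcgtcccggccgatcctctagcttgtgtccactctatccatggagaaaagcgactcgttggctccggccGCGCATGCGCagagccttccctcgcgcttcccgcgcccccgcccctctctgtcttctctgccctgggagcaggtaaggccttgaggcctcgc
Atp5g3: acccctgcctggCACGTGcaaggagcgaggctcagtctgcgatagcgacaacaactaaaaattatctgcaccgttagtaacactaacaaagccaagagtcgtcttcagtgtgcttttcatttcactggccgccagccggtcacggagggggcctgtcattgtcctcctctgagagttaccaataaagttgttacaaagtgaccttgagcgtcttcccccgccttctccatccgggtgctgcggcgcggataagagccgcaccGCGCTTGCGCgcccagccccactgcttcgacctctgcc
The Atp5g1 window holds an E-box, CACGTG. The Atp5g2 window holds a match to the NRF1 motif, and the Atp5g3 window holds both. The NRF1 motif, named for nuclear respiratory factor 1, was searched as GCGC, then A, any base, and GCGC, and all motifs were searched on both strands. Over 80 windows of 75 of the 91 genes, 25% held the NRF1 motif against 4.60% of all 32851 windows. The ETS motif CCGGAAG was in 23.8% against 8.86%, the YY1 motif ATGGCGGC in 10% against 2.24%, the E-box in 8.75% against 7.15%, and TATAAA in 8.75% against 13.6%. No motif contains another as searched. These are counts of letters in a window, with no test and no measurement of binding.

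The isoform that differed most between classes was Cox6a2 (Ensembl ENSMUSG00000030785, chromosome 7:128205435-128206387, minus strand, GRCm38). In plasmacytoid dendritic cell-like cells it stood at 949, 719, 1441 and 1499 CPM, beside 131, 172, 169 and 169 CPM for Cox6a1. It made up 87.9%, 80.7%, 89.5% and 89.8% of the UMIs of the pair. A Cox6a2 UMI was seen in 90.7%, 91.4%, 94.1% and 95.7% of these cells, out of 43, 35, 169 and 69. In macrophage-like cells the same shares were 1.90%, 0.487%, 2.23% and 0.885%, at median depths of 13878 to 17554 UMIs against 10621 to 11481 in the plasmacytoid dendritic cell-like cells. The highest class held 762 times the median of the 11 named classes, the largest such ratio among members above 20 CPM in any class. That median, 1.51 CPM, was the B/plasma-like level and rested on 0, 0, 1 and 1 UMIs, so the size of the ratio is imprecise. The widest 95% Wilson half-width of its share in plasmacytoid dendritic cell-like and microglia-like cells was 4.09 percentage points.

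Microglia-like cells had the next highest level of Cox6a2 among the 10 classes, at 26.1, 21.4, 56.6 and 68.6 CPM, which was 14.4%, 17.8%, 26.7% and 29.8% of the pair. A Cox6a2 UMI was seen in 49.7%, 21.3%, 66.1% and 46.5% of them. It was also seen in 6.59% and 6.55% of the conventional dendritic cell-like cells of Reg1-MO 1 and Reg1-MO 2, and in 28.8% of the 309 unnamed cells of Ctrl 2, so it was not limited to these classes. Of the markers of plasmacytoid dendritic cells, Ccr9 stood at 0.0955, 0.124, 0.878 and 0.401 CPM in microglia-like cells and Ly6d at 0.732, 1.99, 2.62 and 1.80 CPM, while Siglech stood at 78.2, 136, 123 and 264 CPM. All 11 markers together, none at 0, summed to 802, 771, 994 and 1072 CPM in microglia-like cells and to 13602 to 16069 CPM in plasmacytoid dendritic cell-like cells. In microglia-like cells that sum was higher in both Reg1-MO libraries, as Cox6a2 was, and its part in the Cox6a2 values was not tested. Bst2, Tcf4 and Siglech made up most of that sum in microglia-like cells, and Siglech is on the list of microglia markers as well. Of the scarcer ones, Klk1 held 0, 0, 10 and 1 UMIs and Spib 4, 6, 9 and 12. Smim5, at 1.97, 0.124, 0.509 and 0.521 CPM, was not higher in both Reg1-MO libraries.

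**Figure D3:**
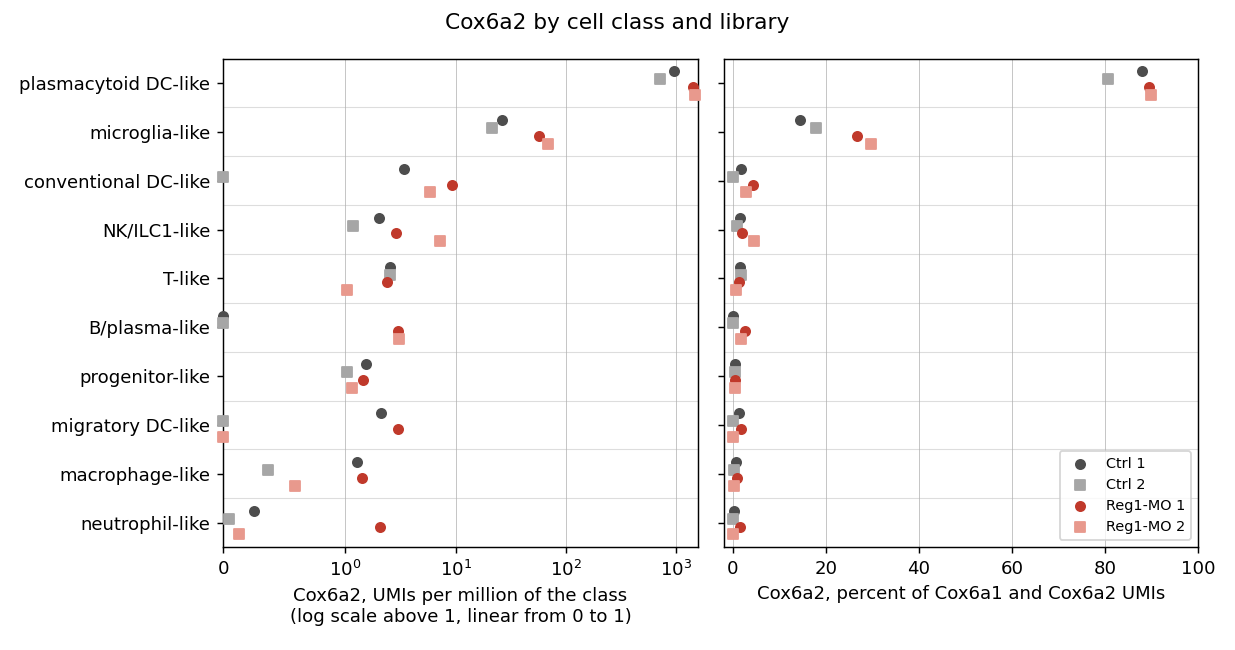
Cox6a2 level in CPM (log axis above 1, linear below) and its percent of Cox6a1 plus Cox6a2 UMIs by class, 1 point per library. Plasmacytoid dendritic cell-like points lie at 719 to 1499 CPM and microglia-like points at 21.4 to 68.6 CPM, with both Reg1-MO values higher than both Ctrl values in each of these classes.

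Cox6a1, the partner of Cox6a2 (chromosome 5:115345642-115348981, minus strand), varied less over the classes than Cox6a2. It stood at 98.8 to 162 CPM in microglia-like, 152 to 172 CPM in macrophage-like and 130.5 to 149 CPM in NK/ILC1-like cells. Its class means ran from 130 CPM in neutrophil-like to 280 CPM in progenitor-like cells, the latter 1.75 times its median over classes. Its RefSeq window, chr5:115348909-115349208 on the minus strand, is printed as the promoter of the more evenly expressed form of the pair. It has 2 NRF1 matches and 1 ETS match in capitals. The window of Cox6a2 is not printed.
Cox6a1: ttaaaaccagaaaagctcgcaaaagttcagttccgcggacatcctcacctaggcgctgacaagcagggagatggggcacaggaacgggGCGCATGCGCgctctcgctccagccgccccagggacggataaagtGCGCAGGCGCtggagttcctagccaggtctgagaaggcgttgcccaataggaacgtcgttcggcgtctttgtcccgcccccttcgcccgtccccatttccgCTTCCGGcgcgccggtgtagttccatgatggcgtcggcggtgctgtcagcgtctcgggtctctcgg

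Other tissue-restricted forms were scarce. Cox6b2, known from testis (chromosome 7:4751792-4753094, minus strand), had its highest level of the 10 classes in progenitor-like cells, at 34.6, 41.9, 20.5 and 34.5 CPM, or 7.56%, 9.17%, 4.06% and 7.04% of Cox6b UMIs. In the immature neutrophil cluster 22 it stood at 19.4, 33.8, 14.2 and 12.4 CPM. T-like cells held 2 to 19 Cox6b2 UMIs in a library. Cox4i2, a form induced at low oxygen in some tissues, was at most 0.877% of Cox4i UMIs in a tested class, with 100, 18, 181 and 33 UMIs in macrophage-like cells. No Cox4i2 UMI was seen in plasmacytoid dendritic cell-like cells, where 0 of 1281 Cox4i UMIs in Reg1-MO 1 allows up to 0.234%. Ndufa4l2, a hypoxia-induced relative of Ndufa4, held 39, 0, 73 and 3 UMIs in macrophage-like cells, which came from 9, 0, 17 and 3 cells. Cox7a1, the muscle form of COX7A, stood at 2.43 to 2.96 CPM in macrophage-like cells.

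No member passed the test between Reg1-MO and Ctrl in any of the 7 classes or over all cells. The test was edgeR's quasi-likelihood test on summed counts, with a call at a Benjamini-Hochberg adjusted p under 0.05 over all genes tested. The background was as thin: 0% of all genes tested were called in microglia-like, macrophage-like, T-like and conventional dendritic cell-like cells and over all cells, 0.00922% in neutrophil-like cells (all of it lower), 0.367% in NK/ILC1-like cells (0.177% higher, 0.19% lower) and 0.0994% in plasmacytoid dendritic cell-like cells (0.0142% higher, 0.0852% lower). Of the members tested, unadjusted p-values under 0.05 were found for 1 of 91 in microglia-like, 5 of 91 in macrophage-like, 5 of 85 in neutrophil-like, 19 of 89 in T-like, 10 of 84 in NK/ILC1-like, 4 of 88 in conventional dendritic cell-like and 9 of 84 in plasmacytoid dendritic cell-like cells, and 2 of 91 over all cells. Over all genes the same shares were 3.18%, 18.6%, 12.2%, 10.5%, 11.3%, 12.3%, 11.1% and 17.2%. DESeq2 called 1 member in microglia-like cells and 1 in plasmacytoid dendritic cell-like cells, Cox6a2 in each, 2 over all cells, Cox6a2 and Cox6b2, and 0 in the other 5 classes. Of all genes it called 30 in microglia-like cells, 35 in plasmacytoid dendritic cell-like cells, 1050 over all cells and 34 to 577 in the other classes. With 2 libraries against 2, the smallest p an exact permutation test of a single value can reach is 0.333. On simulated counts edgeR called 0% of 2-fold changes in microglia-like cells and 21% to 61% in the other tested classes. A lack of calls therefore does not show that levels were unchanged.

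In T-like cells most members had higher values with Reg1-MO. Of 89 tested, 76 had a log2 fold change above 0, with a median of 0.14 against 0.00 over all genes tested. In 42 genes (47.2%) both Reg1-MO libraries lay above both Ctrl libraries, against 22.6% of all genes tested, and in 4 (4.49%) both lay below, against 22.4%. By complex, both Reg1-MO libraries were above for 21 of 37 complex I subunits, 5 of 8 assembly factors, 1 of 4 complex II genes, 3 of 8 complex III genes, 8 of 15 complex IV genes and 4 of 17 complex V genes, though all 17 complex V genes had fold changes above 0. The share of UMIs was higher by 0.154 percentage points (exact permutation p = 0.333). It was higher in both Reg1-MO libraries in each of the 6 T-like clusters. In cluster 14, led by Gzma, Gzmb and genes of CD8 T cells, it was 1.90%, 1.90%, 2.00% and 1.98%, and in cluster 17 it was 1.53%, 1.52%, 1.76% and 1.67%. Without Ctrl 2, 65 of 90 members tested were above 0 and the median was 0.06. Neutrophil markers, 12 in all and none at 0, summed to 769, 1295, 328 and 651 CPM in T-like cells, lower in both Reg1-MO libraries; their part in the result was not tested.

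Of single T-like genes, Ndufc1, a complex I subunit of the membrane arm, stood at 63.0, 65.9, 85.2 and 84.6 normalised CPM (scaled by edgeR's TMM factors). Its log2 fold change was 0.40 ± 0.08 (SE), with an edgeR adjusted p of 0.395. Ndufaf3, an assembly factor, stood at 25.7, 22.2, 36.0 and 33.9 normalised CPM, or 0.54 ± 0.12 (adjusted p = 0.420). Neither pair of groups overlapped. Cox7a2l was on the other side, at 394, 393, 351 and 353 normalised CPM, or -0.16 ± 0.08 (adjusted p = 0.538). So was Cox6a2, at 2.58, 2.52, 2.40 and 1.02 normalised CPM, or -0.49 ± 0.43 (adjusted p = 0.690). Its groups did not overlap, but it held only 46, 21, 50 and 10 UMIs there.

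NK/ILC1-like cells leaned the same way. Of 84 members tested, 67 were above 0 with a median of 0.14, against -0.01 over all genes; both Reg1-MO libraries were above in 29 (34.5%, against 20.8% of all genes) and below in 5 (5.95%, against 21%). Cox7a2, a small subunit of complex IV, stood at 215, 155, 284 and 286 normalised CPM, a log2 fold change of 0.62 ± 0.17 (adjusted p = 0.179). Uqcrc2, a core protein of complex III, stood at 89.6, 97.5, 121 and 144 normalised CPM, or 0.49 ± 0.18 (adjusted p = 0.308). Among the members below 0, the smallest p-values were those of Ndufs1, at -0.49 ± 0.27 (adjusted p = 0.545), and Ndufaf8, at -0.44 ± 0.27 (adjusted p = 0.592). Without Ctrl 2, 48 of 86 members were above 0 and the median was 0.03. Without Ctrl 1, edgeR called Cox7a2 (0.89, adjusted p = 0.0162), where it called 177 of 8218 genes. Summed neutrophil markers, 12 with none at 0, were 550.4, 1638, 469.7 and 271 CPM in these cells; their part was not tested.

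Plasmacytoid dendritic cell-like cells had 65 of 84 members above 0, with a median of 0.18 against -0.01 over all genes. Both Reg1-MO libraries were above in 35 (41.7%, against 21.1%) and below in 9 (10.7%, against 21%). Cox6a2 had the smallest p, at 961, 755, 1508 and 1525 normalised CPM, a log2 fold change of 0.82 ± 0.16 (edgeR adjusted p = 0.0913, DESeq2 adjusted p = 0.00130). Over the alternatives its adjusted p ran from 2.79e-05 without the filter on low counts to 0.306 without Ctrl 2, and leaving out any of the other 3 libraries brought it to 0.000803 to 0.0156. Uqcrb, which binds ubiquinone in complex III, stood at 164, 162, 243 and 241 normalised CPM, or 0.57 ± 0.17 (adjusted p = 0.247). Uqcrh stood on the other side, at 632, 653, 552 and 495 normalised CPM, or -0.29 ± 0.15 (adjusted p = 0.533). The summed markers of T cells in these cells were 385, 269.5, 900.2 and 659 CPM, with 0 of 13 at 0, and those of neutrophils 559.8, 504, 141 and 214 CPM, with 1 of 12 at 0. Their part in the result was not tested. Without Ctrl 2, 65 of 85 members were above 0, with a median of 0.24.

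Conventional dendritic cell-like cells had 60 of 88 members above 0, with a median of 0.08 against -0.00 over all genes. Both Reg1-MO libraries were above in 30 (34.1%, against 23.7%) and below in 12 (13.6%, against 25.2%). Ndufaf3 stood at 25.5, 21.2, 33.5 and 42.4 normalised CPM, or 0.67 ± 0.23 (adjusted p = 0.365), and Ndufa4 at 159, 163, 213 and 209 normalised CPM, or 0.39 ± 0.15 (adjusted p = 0.387). Cox7a2l stood at 382, 424, 298 and 282 normalised CPM, or -0.47 ± 0.15 (adjusted p = 0.350), and Sdha at 79.3, 85.4, 66.8 and 69.9, or -0.27 ± 0.16 (adjusted p = 0.514). Without Ctrl 2, 48 of 90 members were above 0 and the median was 0.01. Without Ctrl 1, edgeR called 665 of 10580 genes, among them Ndufab1 (0.87) and Cox6a2, where Ctrl 2 held 0 Cox6a2 UMIs in 66 cells. Summed neutrophil markers, 12 with none at 0, were 4765, 11518, 471 and 857 CPM in these cells, lower in both Reg1-MO libraries, and their part was not tested.

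Macrophage-like cells leaned the other way. Of 91 members, 32 were above 0, with a median of -0.05 against -0.01 over all genes. Both Reg1-MO libraries were below in 32 (35.2%, close to the 30.1% of all genes) and above in 9 (9.89%, against 28.6%). The share of UMIs was lower, with a difference of -0.122 percentage points (exact permutation p = 0.333). Ndufs1, the largest core subunit of complex I, stood at 26.6, 28.6, 21.05 and 22.0 normalised CPM, or -0.36 ± 0.11 (adjusted p = 0.228). Sdhc stood at 58.6, 59.9, 50.0 and 45.5 normalised CPM, or -0.31 ± 0.11 (adjusted p = 0.245). Among the members above 0, the smallest p-values were those of Ndufaf2, at 0.25 ± 0.12 (adjusted p = 0.341), and Cox7b, at 0.23 ± 0.12 (adjusted p = 0.360). Without Ctrl 1, edgeR called 4 members in this class, where it called 2501 of all genes: Ndufa6 (-0.51) and Cox7a2l (-0.64) were lower and Ndufaf3 (0.57) and Cox4i2 (2.16) higher.

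The macrophage-like clusters did not move together. Clusters 1, 3 and 16 had lower shares in both Reg1-MO libraries, as in cluster 3 at 1.71%, 1.92%, 1.67% and 1.63%. Cluster 2, led by Vcan, a gene of monocytes, had higher ones, at 1.73%, 1.71%, 1.96% and 1.86%. The mix of clusters differed as well: cluster 1 held 242, 12, 762 and 398 cells and cluster 2 held 382, 417, 106 and 130. The part of this mix in the class values was not tested. The median depth of macrophage-like cells was 17125 and 17554 UMIs in Ctrl and 14258 and 13878 in Reg1-MO; its part in the result was not tested. Neutrophil markers summed to 3771, 3894, 1300.2 and 2703 CPM there, with 0 of 12 at 0, and their part was likewise not tested.

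Neutrophil-like cells showed no common side. Of 85 members, 39 were above 0 with a median of -0.04 against -0.01 over all genes, and both Reg1-MO libraries were above in 18 (21.2%, against 21.5%) and below in 14 (16.5%, against 23%). Cox6b2 stood at 7.87, 10.4, 4.62 and 3.49 normalised CPM, or -1.22 ± 0.29 (adjusted p = 0.196), and Sdhc at 20.4, 20.2, 15.2 and 12.95 normalised CPM, or -0.55 ± 0.16 (adjusted p = 0.283). Atp5j2, a membrane subunit of ATP synthase, stood at 126, 127, 162 and 164 normalised CPM, or 0.36 ± 0.13 (adjusted p = 0.342), and Cox8a at 419.8, 401, 478 and 503 normalised CPM, or 0.26 ± 0.15 (adjusted p = 0.524). Cluster 22, where Cox6b2 was higher, held 223, 226, 47 and 64 of the 2073, 2390, 477 and 1031 cells of the class; its part in the Cox6b2 value was not tested.

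Microglia-like cells had 72 of 91 members above 0, with a median of 0.09 against 0.01 over all genes, but groups that did not overlap in only 6: above in 4 (4.40%, against 17.9%) and below in 2 (2.20%, against 16.9%). Without Ctrl 2, 9 of 91 were above 0 and the median was -0.17. The class held 2 clusters in unequal parts: cluster 11, which has Arg1 among its leading genes, had 379, 22, 872 and 315 cells, and cluster 13 had 195, 503, 364 and 735. Cox6a2 stood at 27.2, 20.95, 59.0 and 64.6 normalised CPM, a log2 fold change of 1.36 ± 0.22 (edgeR adjusted p = 0.979, and 0.0415 with DESeq2, the lowest over its alternatives). Both clusters showed this order, with 57.9, 23.4, 124 and 91.5 CPM in cluster 13 and 21.7, 5.61, 47.5 and 47.5 CPM in cluster 11, where Ctrl 2 held 5 Cox6a2 UMIs. In the class, Ndufa4 had a log2 fold change of 0.49 ± 0.30, Cox7a2l of -0.41 ± 0.25 and Uqcrh of -0.25 ± 0.28 (edgeR adjusted p = 0.979 for each). Neutrophil markers in microglia-like cells summed to 17678, 2927, 1893 and 9970.1 CPM, with 0 of 12 at 0, and their part in the class values was not tested. Markers of plasmacytoid dendritic cells, among them Siglech, which is also a microglia marker, summed to 802, 771, 994 and 1072 CPM there, higher in both Reg1-MO libraries. Their part in the Cox6a2 value was not tested.

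**Figure D4:**
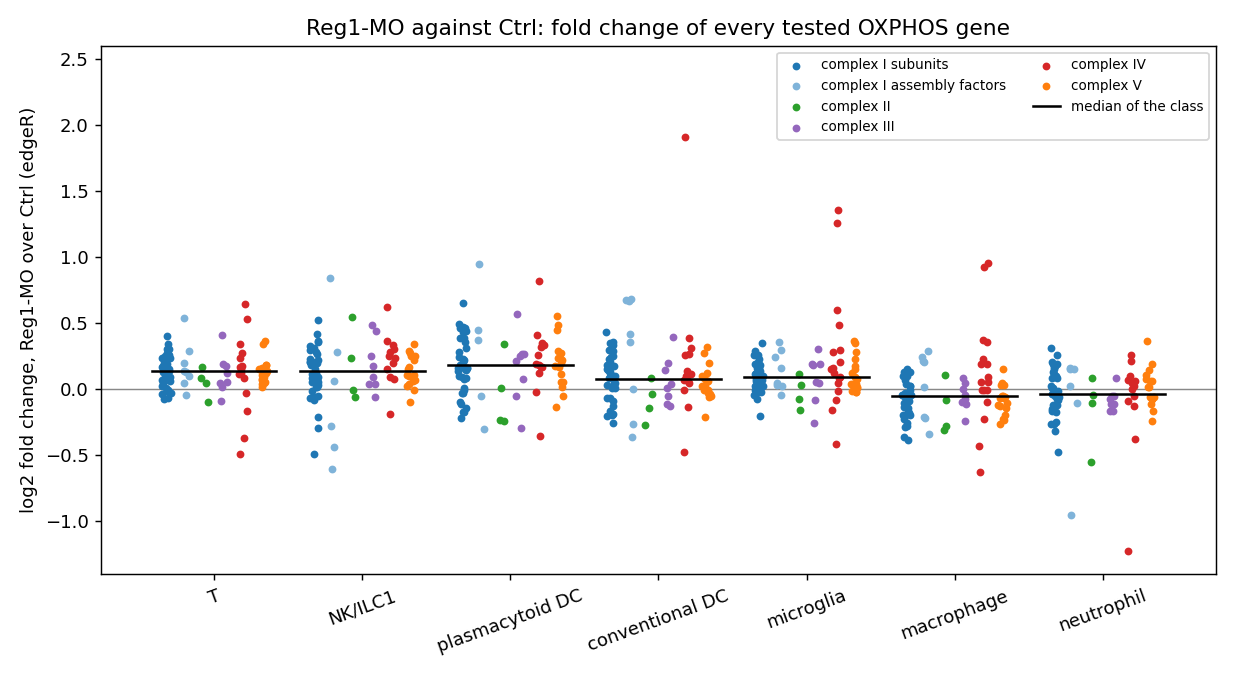
Log2 fold change of Reg1-MO over Ctrl for each tested member (points, coloured by complex) by class, with the members' median as a black bar. Members of T-like, NK/ILC1-like and plasmacytoid dendritic cell-like cells have medians of 0.14, 0.14 and 0.18, those of macrophage-like cells -0.05, and no point passes the test.

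Over all cells, 32 of 91 members were above 0 with a median of -0.04 against -0.01 over all genes; both Reg1-MO libraries were above in 4 (4.40%, against 24.9%) and below in 13 (14.3%, against 28.1%). Cox6a2 stood at 11.6, 8.08, 41.9 and 39.2 normalised CPM, or 2.04 ± 0.20 (edgeR adjusted p = 0.1997, with a range over its alternatives from 3.16e-14 with DESeq2 to 0.349 without Ctrl 2). The share of cells in the 2 classes with its highest levels moved with this: plasmacytoid dendritic cell-like cells were 0.570%, 0.558%, 2.09% and 1.39% of cells, and microglia-like cells 7.61%, 8.37%, 15.3% and 21.2%. Cox6b2 stood at 5.88, 8.80, 2.21 and 3.64 normalised CPM, or -1.33 ± 0.33 (adjusted p = 0.214), while progenitor-like cells, where its level was highest, were 3.35%, 3.33%, 0.718% and 1.55% of cells. Ndufaf2 had a log2 fold change of 0.27 ± 0.11 (edgeR adjusted p = 0.308) and Ndufs1 of -0.25 ± 0.10 (edgeR adjusted p = 0.298) over all cells. In such sums, fewer cells of a type and less RNA per cell cannot be told apart.

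A pattern that recurred over classes concerned the COX7A family. Cox7a2 (chromosome 9:79755361-79759878, minus strand) encodes the widely expressed COX7A2 of complex IV. Cox7a2l (chromosome 17:83501918-83517330, minus strand) encodes a related protein, also called SCAF1 or COX7RP. In T-like cells Cox7a2 stood at 248, 215, 299 and 291 CPM and Cox7a2l at 389, 395, 346 and 358 CPM. In macrophage-like cells Cox7a2 stood at 329.6, 293, 348 and 339.8 CPM and Cox7a2l at 307, 419, 256 and 266 CPM. Cox7a2 was thus 38.9%, 35.3%, 46.2% and 44.8% of Cox7a UMIs in T-like cells and 51.5%, 41.0%, 57.3% and 55.8% in macrophage-like cells.

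The Cox7a2 share was higher in both Reg1-MO libraries in 6 of the 7 tested classes. It was 59.6%, 56.7%, 67.6% and 64.8% in neutrophil-like, 34.0%, 26.1%, 42.5% and 43.8% in NK/ILC1-like, and 40.3%, 32.5%, 49.8% and 49.6% in conventional dendritic cell-like cells. In plasmacytoid dendritic cell-like cells it was 34.0%, 36.9%, 44.2% and 44.4%. In microglia-like cells, at 52.5%, 30.4%, 54.8% and 50.8%, the groups overlapped. Of 17 clusters with at least 30 cells in every library, 15 had higher shares in both Reg1-MO libraries, cluster 7 had lower ones and cluster 23 overlapped. Of the classes not tested, progenitor-like cells stood at 63.5%, 58.1%, 70.6% and 69.5%, while migratory dendritic cell-like cells overlapped. The exact permutation test gave p = 0.333 in each of the 6 classes, the smallest possible. The widest Wilson half-width was 6.05 percentage points.

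**Figure D5:**
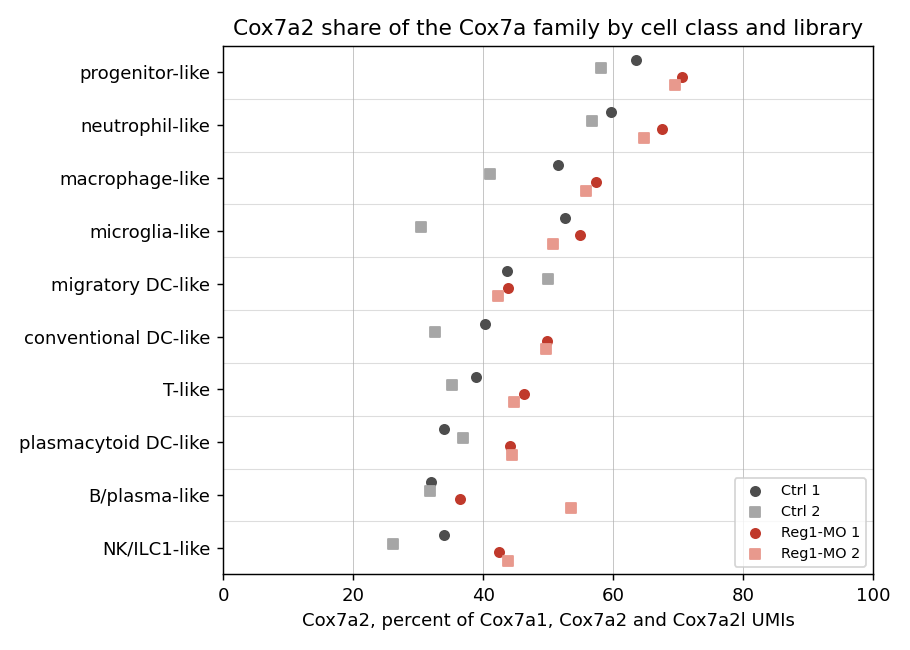
Cox7a2 as percent of Cox7a UMIs by class, 1 point per library. Both Reg1-MO values are higher than both Ctrl values in 6 of the 7 tested classes, as in T-like cells at 46.2% and 44.8% against 38.9% and 35.3%.

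Cox7a2l was lower in both Reg1-MO libraries in 7 of the 7 tested classes, with log2 fold changes of -0.47 to -0.16, and no other member had that order in all 7. Of the 6277 genes tested in all 7 classes, 34 (0.542%) had it. Sdha was lower in both in 6 of the 7, and Atp5j2 was higher in both in 6 of the 7. Atp5e, Cox6b1, Cox7b, Ndufaf3, Ndufb3 and Uqcrb were higher in both in 5. Of the 82 members tested in all 7 classes, 7 (8.54%) were thus higher in both in at least 5, near the 6.66% of all such genes, and 2 (2.44%) were lower in both in at least 5, against 5.8%. These genes were picked after their values were seen, none passed the test in a class, and the classes of a library share its preparation, so they do not count as independent.

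The effect in macrophage-like cells was set against that in microglia-like cells with an interaction term, since both are myeloid phagocytes and 1 is resident. Of the 91 members 0 were called, against 0% of 14417 genes tested, and 0 members and 463 genes had an unadjusted p under 0.05. Without Ctrl 1, 20 of 91 members and 2508 of 14846 genes had an unadjusted p under 0.05, and 0 members and 339 genes were called.

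Genes around the respiratory chain were followed in the same fits, and 0 of the genes of 8 lists were called in any class. The mitochondrially encoded oxidative phosphorylation genes, led by mt-Co3 and mt-Co1, had 11 of 13 below 0 in macrophage-like cells, with a median of -0.28, and 9 of 13 below 0 in T-like cells, with a median of -0.12. In T-like cells their median was thus on the other side from that of the nuclear-encoded genes. Both Reg1-MO libraries were above in 23.1% of the 13 there and below in 30.8%, near the 22.6% and 22.4% of all genes. In macrophage-like cells both were below in 69.2% of the 13, against 30.1% of all genes, and above in 15.4%, against 28.6%. All mitochondrial genes together took 3.06%, 2.98%, 3.05% and 2.99% of T-like UMIs, and the groups overlapped. mt-Co1, a catalytic subunit of complex IV, stood at 5666, 6321, 5269 and 4621 normalised CPM in macrophage-like cells. Cytochrome c (Cycs) and cytochrome c1 (Cyc1) had fold changes above 0 in both classes. In macrophage-like cells Cycs stood at 151, 106, 177 and 194 normalised CPM, or 0.53 ± 0.19 (adjusted p = 0.257).

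Glycolysis genes, led by Gapdh and Pkm, had 17 of 19 above 0 in macrophage-like cells, with a median of 0.68, and 15 of 19 in T-like cells, with a median of 0.40. In macrophage-like cells both Reg1-MO libraries were above in 84.2% of them, against 28.6% of all genes. Glycolysis genes took 1.21%, 0.968%, 1.35% and 1.25% of UMIs in macrophage-like cluster 1 and 0.460%, 0.486%, 0.525% and 0.464% in cluster 2. The part of the cluster mix in the class values was not tested. Ldha, which makes lactate, stood at 839.8, 370.1, 1156 and 1001 normalised CPM there, or 0.83 ± 0.39 (adjusted p = 0.320). Hypoxia response genes, led by Mif and Hif1a, had 14 of 15 above 0 in macrophage-like cells (median 0.93) and 9 of 11 in T-like cells (median 0.35). Tricarboxylic acid cycle genes, led by Acod1, which makes itaconate, and Mdh2, had 14 of 17 below 0 in macrophage-like cells (median -0.07) and 12 of 17 above 0 in T-like cells (median 0.06).

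Assembly factors outside the 91, led by Cox17 and Higd1a, had 29 of 42 above 0 in T-like cells (median 0.15) and 18 of 42 in macrophage-like cells (median -0.06). Regulators of mitochondrial biogenesis, led by Yy1 and Ppard, had 5 of 12 above 0 in T-like cells (median -0.01) and 6 of 12 in macrophage-like cells (median 0.01). Mitochondrial carriers and porins, led by Ucp2 and Slc25a3, had 5 of 8 above 0 in T-like cells (median 0.15) and 4 of 8 in macrophage-like cells (median 0.05).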

How the data were processed

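The authors deposited, for each of 4 libraries of sorted spinal cord cells (2 Ctrl, 2 Reg1-MO), a matrix of UMI counts per gene and barcode. Per the file headers, these matrices come from Cell Ranger 5.0.1, and the submitters' processing notes name mm10 and Seurat 4.0; the part Seurat had in these matrices is not given in the sources used here, nor is the annotation. The total UMI count per library was 75472324 to 174552218.

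From these, barcodes with under 500 UMIs, under 200 genes or over 10% mitochondrial UMIs were dropped, and the cells with the highest Scrublet doublet scores (scanpy 1.11.5, Python 3.11.15) were removed at 0.8% per 1000 barcodes. Cells were clustered (Leiden, igraph 0.11.9, resolution 1, 3000 variable genes, 40 components, 15 neighbours), with the 91 genes kept out of the variable genes. A cluster took a class name from at least 3 detected marker genes; the naming thresholds were set after the clusters were seen. A class is therefore rebuilt here, not the authors' own. Counts were summed per library and class, genes were filtered with filterByExpr (minimum count 10), scaled by TMM and tested with edgeR 4.0.16 (R 4.3.3, limma 3.58.1), Benjamini-Hochberg adjusted over all genes tested. The test was also run on simulated counts that took their means and spread from these fits. Simulated 2-fold changes were called for 0% in microglia-like cells and 21% to 61% in the other tested classes. Simulated 4-fold changes were called for 12% and for 79% to 94%. False calls ran from 0 in NK/ILC1-like to 18 in T-like cells. A class was tested where every library held 30 cells. Alternatives were DESeq2 1.42.0, RLE scaling, no filter, a replicate block, each library left out, at most 5% mitochondrial UMIs, a doubled doublet rate and other denominators. Shares have 95% Wilson intervals. Positions are from GENCODE M21. Nothing says that the libraries of a group came from separate animals, so p-values measure the spread between these libraries, which may be technical.

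The genes named are Cox6a2, the isoform families, Sdha to Sdhd, the 2 highest genes of each complex over all cells, the 2 genes each way with the smallest p where none was called, and the 5 with the highest ratio of the highest to the median class; others were picked after their values were seen. The 91 genes, the gene lists and the comparisons were chosen with earlier results of these data known.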

Additional observations from a re-analysis of the deposited data

Results flagged for a closer look

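In macrophage-like cells the 91 genes took a smaller share of UMIs in each Reg1-MO library than in either Ctrl library (difference -0.122 percentage points), while in 3 other tested classes they took a larger one. The macrophage-like difference minus that of T-like cells (0.154) was -0.277 percentage points, minus that of NK/ILC1-like cells (0.169) was -0.292, and minus that of plasmacytoid dendritic cell-like cells (0.220) was -0.342. These are singled out because the libraries moved opposite ways in the classes compared. Macrophage-like clusters 1 and 2 also differed in cell number between the groups, and their part in these differences was not tested. The difference between classes itself was not tested; within each class the exact permutation p was 0.333, the smallest that 2 libraries against 2 allow. No group of samples was large enough for a check of single outlying libraries.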

How the results depend on the processing

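No member was called under RLE scaling, at most 5% mitochondrial UMIs or a doubled doublet rate. DESeq2 called 1 in microglia-like cells, 1 in plasmacytoid dendritic cell-like cells (Cox6a2 in both) and 2 over all cells (Cox6a2, Cox6b2). Without the filter on low counts, 1 was called in macrophage-like, neutrophil-like, NK/ILC1-like, conventional and plasmacytoid dendritic cell-like cells and over all cells, and 5 in T-like cells (Ndufa4, Ndufaf3, Uqcrb, Ndufc1 and Atp5j2, all higher). Of all genes, that setting called 2058 of 21357, 684 of 18765, 185 of 15446, 731 of 16914, 248 of 14534 and 215 of 24927 in the same order. In T-like cells it called 544 of 20531. Same-numbered libraries correlated in their deviations at -0.09 to 0.33 over the classes, over 2 pairs, and the labels do not say that the numbers pair samples. With the number as a replicate block, 1 member was called in neutrophil-like cells (Cox6b2), 1 over all cells (Cox6a2) and 0 in the other classes. Of all genes, this block gave calls for 440 of 10850 in neutrophil-like cells and 31 of 16780 over all cells. Leaving out 1 library gave 0 to 4 members in macrophage-like, 0 to 1 in NK/ILC1-like, 0 to 2 in conventional dendritic cell-like and 0 to 1 in plasmacytoid dendritic cell-like cells. Each highest count came without Ctrl 1, and in the last class also without either Reg1-MO library. In single clusters, added after the data were seen, 2 were called in cluster 2 (Atp5j2 and Cox7b, higher; 614 of all 9588 genes) and 1 in cluster 9 (Cox7a2l, lower; 125 of 7710). Calls over all genes moved far more: macrophage-like cells had 0 in the fit reported, 577 with DESeq2, 2058 without the filter and 2501 without Ctrl 1, and T-like cells 0, 75, 544 and 220.

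The difference in UMI share changed sign in 4 groups when 1 library was left out. It ran from -0.134 to 0.351 in microglia-like cells, -0.0985 to 0.0013 in neutrophil-like, -0.0193 to 0.131 in conventional dendritic cell-like cells and -0.0584 to 0.123 over all cells. Without mitochondrial, ribosomal, hemoglobin and antigen receptor genes in the denominator, the conventional dendritic cell-like difference was -0.0247. In macrophage-like, T-like, NK/ILC1-like and plasmacytoid dendritic cell-like cells it kept its sign with other denominators, with each library left out, at most 5% mitochondrial UMIs and the doubled doublet rate, while macrophage-like cluster 2 alone had the opposite sign. Fold changes that turned in a single cluster were those of Ndufaf2 (-6.65e-05) and Ndufs1 (0.0818) in cluster 2, Cox7b in cluster 3 (-0.0688), Atp5j2 in cluster 20 (-0.319) and Cox7a2l in cluster 23 (0.0973). The cause of these changes was not tested. The Cox7a2 share kept its sign in each tested class when 1 library was left out, down to 0.276 percentage points in microglia-like cells without Ctrl 2. The fewest cells of a tested class were the 35 plasmacytoid dendritic cell-like cells of Ctrl 2.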
